A study of Mus musculus with 20 samples.

Results

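Macrophages that have taken up a microbe show T cells antigen together with surface proteins that raise or restrain the T cell response. The 10 genes described here encode such co-stimulatory and checkpoint proteins, with the activation marker Cd69 beside them: Cd40, Cd69, Cd70, Cd80, Cd83, Cd86, Cd274, Pdcd1lg2, Icosl and Tnfsf9. They were taken by gene symbol from a count table of 21963 gene entries, whatever their values, and all 10 had an entry. Of these, 8 passed the filter on low counts and were tested among 11707 genes, and Cd70 and Pdcd1lg2 did not pass it.

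RNA was measured in bulk in 20 libraries of bone marrow-derived macrophages (BMDMs), which are macrophages grown from mouse marrow in medium with 20% L929-conditioned medium. WT BMDMs were untreated (4 libraries), given zymosan for 3 h (5 libraries), or loaded with 10 µM BAPTA-AM and given zymosan for 3 h (4 libraries). Mcu-/- BMDMs were untreated (4 libraries) or given zymosan for 3 h (3 libraries). Mcu encodes the pore of the mitochondrial Ca2+ uniporter, zymosan is a yeast cell wall preparation, and BAPTA-AM is a cell-permeant Ca2+ chelator. The authors' methods give zymosan at 2 particles per cell in other assays of the study and state no zymosan dose for RNA sequencing. The knockout came from mice with a floxed Mcu allele and Cx3cr1-cre, so it rests on recombination in cells that express Cx3cr1 or descend from such cells, and the mice were 15 to 25 weeks old. Loading of Mcu-/- BMDMs, and loading without zymosan, were not analysed here. The labels call the libraries biological replicates but do not tie them to mice.

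T cells need a signal beyond antigen, which CD80 and CD86 give through CD28 and withdraw through the inhibitory receptor CTLA-4. Other members of the B7 family act through other receptors: the ICOS ligand, encoded by Icosl, sustains helper T cells, while PD-L1 and PD-L2, encoded by Cd274 and Pdcd1lg2, engage the inhibitory receptor PD-1. Ligands of the tumor necrosis factor family, such as the products of Tnfsf9 (for CD137) and Cd70 (for CD27), prolong the response of T cells that are already activated. CD40 is the receptor through which helper T cells license the presenting cell, CD83 stabilizes MHC class II and CD86 at the surface, and CD69 is a lectin that holds the sphingosine receptor S1PR1 inside the cell.

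Promoter sequence is shown for the neighbouring genes Cd274 and Pdcd1lg2, of which Cd274 had the highest level per kb with zymosan and Pdcd1lg2 hardly any counts, and for Icosl, which went against the other members in WT BMDMs. RefSeq promoters of build GRCm38.p6 (mm10), from 250 bases before to 50 bases after the start site, were at hand for these 3 genes and Cd80, that is, for 4 of 10 members. Each is printed 5′ to 3′ on the plus strand of the genome, which is the sense strand of all 4 genes. Capitals mark matches to 6 motifs searched on both strands: NF-kB by its consensus, AP-1 (TGANTCA), CRE (TGACGTCA), NFAT (TGGAAA), ISRE (GAAA, any 2 bases, GAAA) and GAS (TTCNNNGAA). Of 32851 promoters of the same length, 8.46% hold the NF-kB motif, 7.81% AP-1, 1.79% CRE, 21.4% NFAT, 3.44% ISRE and 8.3% GAS.
Cd274, chr19:29367188-29367487: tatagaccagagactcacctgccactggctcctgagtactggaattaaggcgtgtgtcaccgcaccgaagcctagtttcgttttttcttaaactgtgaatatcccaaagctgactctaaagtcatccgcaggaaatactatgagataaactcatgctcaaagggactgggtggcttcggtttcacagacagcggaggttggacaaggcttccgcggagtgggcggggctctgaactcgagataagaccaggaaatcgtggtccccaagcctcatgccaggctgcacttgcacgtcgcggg
Pdcd1lg2, chr19:29410669-29410968: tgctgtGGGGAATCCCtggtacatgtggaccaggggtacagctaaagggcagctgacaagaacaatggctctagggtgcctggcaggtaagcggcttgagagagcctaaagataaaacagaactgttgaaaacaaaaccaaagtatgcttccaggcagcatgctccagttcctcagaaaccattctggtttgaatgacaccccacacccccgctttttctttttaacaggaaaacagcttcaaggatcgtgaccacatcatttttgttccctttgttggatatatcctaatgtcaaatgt
Icosl, chr10:78069118-78069417: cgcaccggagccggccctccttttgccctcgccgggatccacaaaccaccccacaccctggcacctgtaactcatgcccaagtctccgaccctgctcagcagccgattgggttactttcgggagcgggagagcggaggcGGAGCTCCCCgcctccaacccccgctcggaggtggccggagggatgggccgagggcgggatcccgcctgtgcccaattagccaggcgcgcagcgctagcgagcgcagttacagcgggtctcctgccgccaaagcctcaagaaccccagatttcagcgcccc
The Cd274 window held no match to any of the 6. The Pdcd1lg2 window held 1 NF-kB match that starts 244 bases before the start site, the Icosl window 1 NF-kB match on the minus strand at 111 bases before it, and the Cd80 window (chr16:38458683-38458982, plus strand) 1 AP-1 match, TGATTCA, at 42 bases before it. A match describes letters and not binding.

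Several members are neighbours in the genome. In GENCODE M21 on mm10, Cd274 (ENSMUSG00000016496, chr19:29367455-29388095, plus strand) and Pdcd1lg2 (ENSMUSG00000016498, chr19:29410919-29471161, plus strand) are 22.8 kb apart with 0 genes lying wholly between them. Tnfsf9 (ENSMUSG00000035678, chr17:57105325-57107757, plus strand) and Cd70 (ENSMUSG00000019489, chr17:57145997-57149777, minus strand) are 38.2 kb apart. Cd86 (ENSMUSG00000022901, chr16:36603869-36666081, minus strand) and Cd80 (ENSMUSG00000075122, chr16:38455561-38496335, plus strand) share chromosome 16 at a distance of 1789 kb. The others lie alone: Icosl (ENSMUSG00000000732, chr10:78069302-78083913, plus strand), Cd40 (ENSMUSG00000017652, chr2:165055627-165072948, plus strand), Cd83 (ENSMUSG00000015396, chr13:43784775-43803132, plus strand) and Cd69 (ENSMUSG00000030156, chr6:129267325-129275436, minus strand). Annotated genes on the opposite strand overlap Cd274, Pdcd1lg2 and Tnfsf9, and since the strand setting of the counting is not given in the sources used here, their reads cannot be told apart.

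The total count was 14.4 to 24.0 M per library. Mcu was at 6.10 to 9.55 CPM (the count divided by the TMM-scaled library size in M, the unit of all levels below) in the 13 WT libraries and at 2.63 to 4.05 CPM in the 7 Mcu-/- libraries. Untreated Mcu-/- replicate 4 stood apart, since the chi-square of its counts against each of replicates 1 to 3, averaged over genes, was 169.7 to 175, while the 28 other replicate pairs gave 1.52 to 5.29. Members' log2 fold changes from edgeR comparisons that hold it are given with and without it. Counts from DESeq2 or at an unadjusted p are given with it only. It touches every test through the shared estimate of spread: the biological coefficient of variation was 12.4% with it and 3.56% without. The 8 macrophage markers were present in every library, at a summed 13358 to 13743 CPM in WT untreated, 16082 to 16396 in WT zymosan, 14322 to 14561 in BAPTA-AM loaded, 8557 to 14779 in Mcu-/- untreated and 10409 to 10768 CPM in Mcu-/- zymosan BMDMs. Of the 8 dendritic cell markers, Flt3, Siglech and Cd209a had at most 3 counts in every library, and the list summed to at most 28.9 CPM. Most of it in WT untreated BMDMs was Batf3, at a median of 25.4 CPM. Xcr1 had a median of 0.598 CPM in WT untreated and 8.98 CPM in WT zymosan BMDMs. Of the 7 T cell markers, Cd3e, Cd3d, Cd3g and Cd8a had at most 3 counts in every library, and the list summed to at most 4.33 CPM. That was in Mcu-/- zymosan BMDMs, where the median of Cd4 was 3.63 CPM.

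Zymosan moved all 8 tested members in WT BMDMs. In edgeR's quasi-likelihood test with Benjamini-Hochberg adjustment, called at an adjusted p under 0.05, 7 members were higher and 1 was lower, where 32.4% of all genes tested were called higher and 36.8% lower. Zymosan and untreated libraries were apart for all 8, as for 69.5% of all genes. The median log2 fold change of the members was 4.09, beside −0.04 over all genes.

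Among the B7 family, the ligand with the highest level per kb after zymosan was the inhibitory Cd274. In the 4 WT untreated libraries Cd274 was at 41.2, 41.5, 43.2 and 38.3 CPM, and in the 5 WT zymosan libraries at 2075, 1992, 1926, 1978 and 1847 CPM. Every zymosan library lay far above every untreated library, a log2 fold change of 5.58 (standard error 0.19, adjusted p = 3.93e-15 in edgeR). Cd86 rose less in ratio. It went from 41.5, 40.2, 36.4 and 42.2 CPM untreated to 604, 560.4, 544, 606 and 552 CPM with zymosan, a log2 fold change of 3.84 (standard error 0.14, adjusted p = 1.06e-14 in edgeR). Cd80, which shares its receptors with Cd86, rose least, from 7.97, 7.25, 8.43 and 7.57 CPM untreated to 16.0, 14.99, 19.3, 16.7 and 15.7 CPM with zymosan, a log2 fold change of 1.08 (standard error 0.17, adjusted p = 1.12e-05 in edgeR). Icosl was the single member that fell, from 37.7, 36.0, 38.6 and 36.6 CPM to 15.7, 15.7, 17.6, 19.8 and 17.0 CPM, a log2 fold change of −1.12 (standard error 0.09, adjusted p = 8.28e-10 in edgeR).

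**Figure D1:**
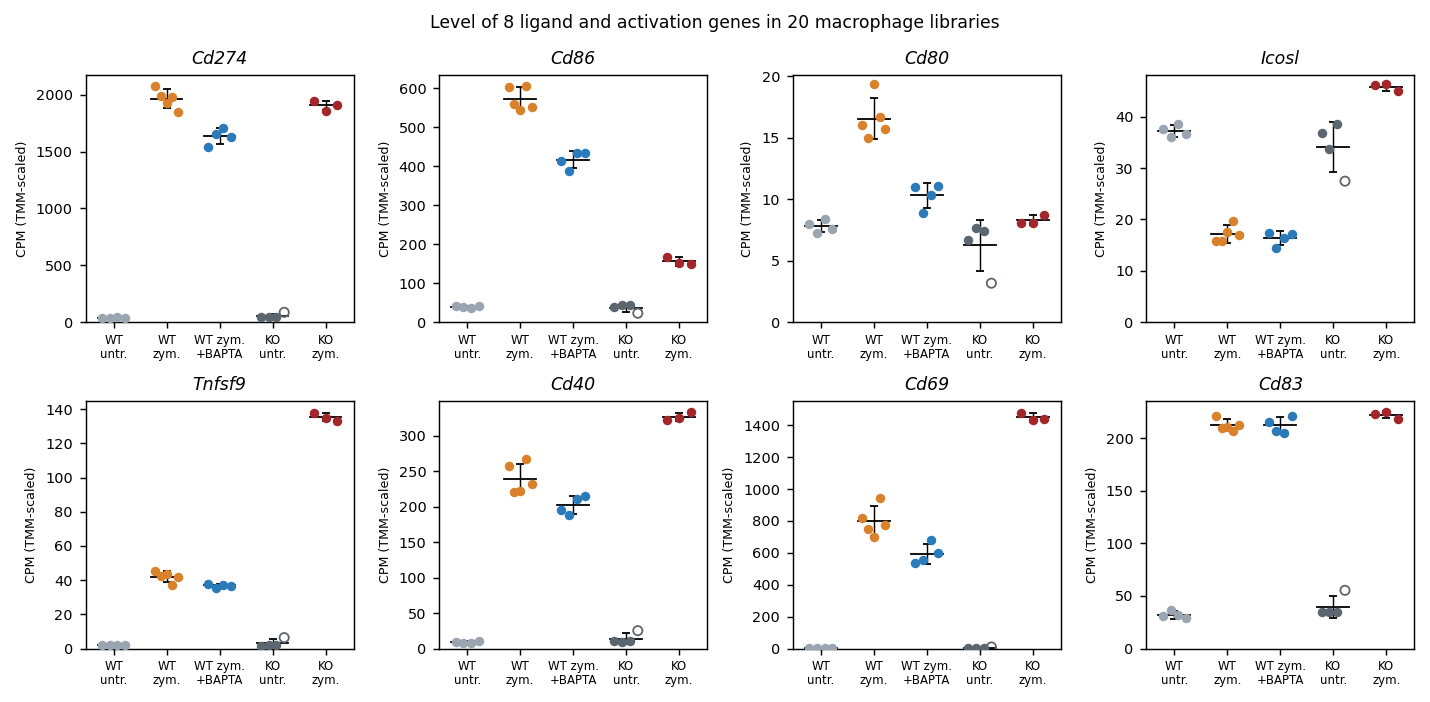
Each panel plots the level of 1 gene (y axis, CPM of the TMM-scaled library size, linear from 0) in each of the 20 libraries by group (x axis). WT untr., WT zym., WT zym. +BAPTA, KO untr. and KO zym. stand for WT untreated, WT zymosan, WT zymosan with BAPTA-AM, Mcu-/- untreated and Mcu-/- zymosan, points are libraries, the open circle is untreated Mcu-/- replicate 4, and lines with bars are the mean ± SD. Mcu-/- zymosan libraries lie below WT zymosan libraries for Cd86 and Cd80, above them for Icosl, Tnfsf9, Cd40 and Cd69, and overlap them for Cd274 and Cd83.

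Outside the B7 family, Cd69 had the largest fold change of the set. It rose from 3.88, 3.44, 2.91 and 3.81 CPM untreated to 819, 748, 701, 946 and 772 CPM with zymosan, a log2 fold change of 7.83 (standard error 0.23, adjusted p = 3.20e-16 in edgeR). The untreated libraries had 68 to 91 counts of it. The receptor gene Cd40 rose from 8.61, 8.19, 7.71 and 10.7 CPM to 257, 221, 222, 266 and 232 CPM, a log2 fold change of 4.77 (standard error 0.24, adjusted p = 1.81e-12 in edgeR). Tnfsf9 rose from 2.13, 2.21, 2.01 and 1.85 CPM to 45.6, 42.3, 43.3, 37.0 and 41.8 CPM, a log2 fold change of 4.35 (standard error 0.25, adjusted p = 1.20e-11 in edgeR). Cd83 began at the highest mean level per kb of the set, with libraries that overlapped those of Cd274 and Cd86, and rose less in ratio. It rose from 30.8, 37.1, 32.0 and 28.6 CPM to 222, 210.2, 211, 207 and 213 CPM, a log2 fold change of 2.72 (standard error 0.12, adjusted p = 1.33e-13 in edgeR).

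The neighbours of Cd274 and Tnfsf9 stayed at or near the floor of 3 counts. Pdcd1lg2 had 2, 3, 4 and 1 counts in the WT untreated libraries, 4, 4, 1, 10 and 7 in WT zymosan, 7, 7, 2 and 4 in BAPTA-AM loaded, 6, 4, 7 and 2 in Mcu-/- untreated and 4, 3 and 8 in Mcu-/- zymosan BMDMs. Its highest level was 0.548 CPM, in WT zymosan replicate 4, and the groups overlapped. Cd70 had 1 count in WT untreated replicate 1, 2 counts in WT zymosan replicate 5 and 0 in the other 18 libraries. In sum Pdcd1lg2 had 10 counts in the 4 WT untreated and 26 in the 5 WT zymosan libraries. Neither gene was tested between groups.

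Levels of different genes were compared per kb of annotated exon, which counts every exon of a gene and so understates a gene with long unused exons. In WT untreated BMDMs the leading members were Cd83 at 12.5 ± 1.40 CPM per kb, Cd274 at 11.3 ± 0.563 and Cd86 at 10.9 ± 0.71 (SD, n = 4), whose libraries overlapped. Icosl followed at 8.05 ± 0.251, then Cd40 at 2.58 ± 0.389 and Cd80 at 2.11 ± 0.138 CPM per kb, which overlapped, and then Tnfsf9 at 1.59 ± 0.120 and Cd69 at 0.539 ± 0.0683 CPM per kb. With zymosan the WT order was Cd274 at 542 ± 23.3, Cd86 at 157 ± 8.07, Cd69 at 122 ± 14.4, Cd83 at 82.6 ± 2.16, Cd40 at 70.3 ± 6.12 and Tnfsf9 at 32.6 ± 2.45 CPM per kb (SD, n = 5). Cd80 at 4.47 ± 0.452 and Icosl at 3.72 ± 0.362 CPM per kb came last of the tested members and overlapped. In Mcu-/- zymosan BMDMs Cd86 moved from the second place to the sixth. There the order was Cd274 at 526 ± 11.8, Cd69 at 223 ± 4.07, Tnfsf9 at 105 ± 1.92, Cd40 at 95.8 ± 1.63, Cd83 at 86.5 ± 1.29, Cd86 at 42.7 ± 2.96, Icosl at 9.93 ± 0.162 and Cd80 at 2.24 ± 0.106 CPM per kb (SD, n = 3), with no overlap between neighbours.

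The comparison of Mcu-/- with WT BMDMs, both with zymosan, shows how the levels of this set differed between these groups. The CD28 ligands were lower, the ICOS and CD137 ligands were higher, and Cd274 showed no called difference. Of the 8 members, 3 were called higher and 2 lower, beside 31.8% and 30.3% of all genes tested. These 5 of 8 stand beside 62.1% of all genes called in either direction, a share close to the background. The groups had no overlap for 6 of 8 members, as for 64% of all genes. In bulk RNA, fewer cells that express a gene and less RNA of it per cell cannot be told apart, here and in every comparison.

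Cd86 had the largest fall. It was at 169, 152 and 148 CPM in the 3 Mcu-/- zymosan libraries, and the WT zymosan libraries did not go below 544 CPM, a log2 fold change of −1.88 (standard error 0.14, adjusted p = 6.38e-09 in edgeR). Cd80 was at 8.07, 8.08 and 8.75 CPM, of which 2 lay inside the range of the WT untreated libraries, against 14.99 CPM or more in WT zymosan, a log2 fold change of −0.99 (standard error 0.19, adjusted p = 0.000173 in edgeR). The inhibitory ligand did not go with them. Cd274 was at 1944, 1859.6 and 1912 CPM, inside the WT zymosan range of 1847 to 2075 CPM, with a log2 fold change of −0.04 (95% interval −0.36 to 0.28, adjusted p = 0.833 in edgeR).

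Icosl, which zymosan lowered in WT, was at 46.1, 46.5 and 45.0 CPM in Mcu-/- zymosan BMDMs. These values lay above all WT libraries, treated or not, and the log2 fold change against WT zymosan was 1.42 (standard error 0.09, adjusted p = 8.82e-10 in edgeR). Tnfsf9 was at 138, 135 and 133 CPM against at most 45.6 CPM in WT, a log2 fold change of 1.69 (standard error 0.19, adjusted p = 1.26e-06 in edgeR). Cd69 was at 1479, 1430.1 and 1436 CPM against at most 946 CPM in WT, a log2 fold change of 0.86 (standard error 0.17, adjusted p = 0.000227 in edgeR). For these 5 called members the call held under all 25 alternatives that were run.

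Cd40 and Cd83 did not pass the test. Cd40 was at 322, 325 and 333 CPM, above each WT zymosan library, and its log2 fold change of 0.45 (SE 0.21) had an edgeR adjusted p of 0.0702. Leaving out replicate 4 of the untreated Mcu-/- group, which is in neither arm, kept the log2 fold change at 0.45 (SE 0.05) with an edgeR adjusted p of 1.34e-10, and over the 25 alternatives the adjusted p ran from 1.34e-10 to 0.143. That left 4 members higher and 2 lower without that library, beside 36.4% and 33.7% of 11666 genes. Cd83 was at 223, 225 and 219 CPM, of which 1 lay inside the WT zymosan range and 2 above it, with a log2 fold change of 0.07 (95% interval −0.16 to 0.29, adjusted p = 0.633 in edgeR).

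Other cell type markers also differed between these groups. The fibroblast list of 3 genes (Col1a1, Col3a1, Pdgfra) summed to 21.9 to 28.8 CPM in Mcu-/- zymosan and 2.69 to 4.23 CPM in WT zymosan BMDMs, most of it Col1a1. The B cell list of 5 genes summed to 13.0 to 13.6 and 30.8 to 37.4 CPM, most of it Cd79b, and the dendritic cell list to 13.2 to 14.1 and 22.3 to 24.7 CPM. Within the dendritic cell list the median of Batf3 was 2.35 against 14.1 CPM, while that of Xcr1 was 10.5 against 8.98 CPM. Within the macrophage list the median of Lyz2 was 3229 against 8258 CPM and that of Cd68 1158 against 309.9 CPM. The part of these shifts in the members' differences was not tested.

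**Figure D2:**
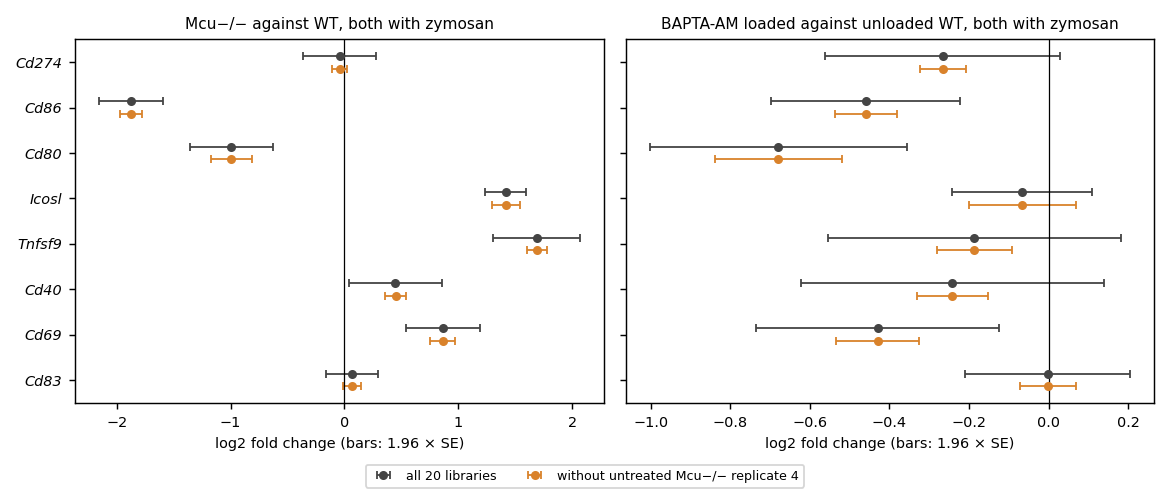
Points are log2 fold changes of the 8 tested members (y axis) for Mcu-/- against WT (left) and BAPTA-AM loaded against unloaded WT (right), all with zymosan; the x axes differ in range and bars are 95% intervals from the standard error, from the fit of all 20 libraries (dark) and without untreated Mcu-/- replicate 4 (orange). Cd86 lies at −1.88 on the left and −0.46 on the right, and Tnfsf9 at 1.69 and −0.19.

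BAPTA-AM loading was compared with no loading in WT BMDMs, both with zymosan, to show which members differed in level with the chelator. Dependence on a rise of Ca2+ was not tested. The CD28 ligands fell, and no member was called higher. In edgeR 2 of 8 were called lower and 0 higher, where 6.33% and 6.43% of all genes were called. DESeq2's Wald test called 3 lower and 0 higher, beside 1000 and 668 of 11707 genes. At an unadjusted p under 0.05 there were 3 lower and 0 higher. The share of all genes was not counted for that rule, here or below. For 5 members the loaded libraries lay below all unloaded ones, where 24.3% of all genes had groups without overlap in either direction. The members' median log2 fold change was −0.25, beside 0.00 over all genes. The unloaded WT zymosan libraries also serve the comparison with Mcu-/- BMDMs, so the values of these comparisons are not independent and are only set side by side.

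The called members were the CD28 ligands. Cd80 was at 10.99, 8.90, 10.4 and 11.1 CPM with loading, below the 14.99 to 19.3 CPM of unloaded libraries, a log2 fold change of −0.68 (standard error 0.17, adjusted p = 0.00964 in edgeR). Cd86 was at 413, 388, 433 and 433 CPM, below the 544 to 606 CPM of unloaded libraries, a log2 fold change of −0.46 (standard error 0.12, adjusted p = 0.0165 in edgeR). The Cd86 call was lost in 2 of 26 alternatives, of which 1 left out BAPTA-AM loaded replicate 2 (adjusted p = 0.0597 in edgeR), and over all 26 the values ran from 4.89e-12 to 0.0799. In Mcu-/- BMDMs the same genes had log2 fold changes of −0.99 and −1.88.

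Cd69, Cd274 and Cd40 had loaded libraries below all unloaded ones without a call. Cd69 was at 535, 557, 678 and 599 CPM with loading, a log2 fold change of −0.43 (standard error 0.16, adjusted p = 0.0817 in edgeR). Cd274 was at 1541, 1654, 1707 and 1630.1 CPM, a log2 fold change of −0.27 (standard error 0.15, adjusted p = 0.296 in edgeR). Cd40 was at 195, 189, 211 and 215 CPM, a log2 fold change of −0.24 (standard error 0.19, adjusted p = 0.504 in edgeR). Tnfsf9 was at 38.0, 35.6, 37.4 and 36.7 CPM, overlapping the unloaded libraries at 37.0 CPM, with a log2 fold change of −0.19 (standard error 0.19, adjusted p = 0.616 in edgeR). These 4 were all called lower without untreated Mcu-/- replicate 4, at edgeR adjusted p of 2.73e-08, 3.03e-09, 5.76e-05 and 0.00244 in this order, which made 6 members lower beside 16.5% of all genes. Over the 26 alternatives the highest adjusted p were 0.205, 0.477, 0.67 and 0.744. A fit of the compared groups alone also called all 6 lower, beside 1788 of 10973 genes.

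Icosl and Cd83 were not called in any of 26 alternatives. Icosl was at 17.4, 14.5, 16.4 and 17.2 CPM with loading, a log2 fold change of −0.07 (95% interval −0.24 to 0.11, adjusted p = 0.73 in edgeR). In Mcu-/- against WT BMDMs with zymosan Icosl was higher. Cd83 was at 215, 207, 205 and 222 CPM, a log2 fold change of 0.00 (95% interval −0.21 to 0.21, adjusted p = 0.995 in edgeR).

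Measured against the zymosan change itself, loading took the largest share from Cd80, the member that rose least. Its WT means were 7.81 CPM untreated and 16.5 CPM with zymosan. The shares are of means on the linear scale and carry no spread. The loaded mean kept 28.9% of the rise of Cd80 over the WT untreated mean, 70.7% of that of Cd86, 74.1% of that of Cd69, 82.8% of that of Cd274, 84.0% of that of Cd40, 87.3% of that of Tnfsf9 and 99.8% of that of Cd83, and 104% of the fall of Icosl. Against WT untreated BMDMs, loaded BMDMs had 6 members called higher and 1 lower, beside 31.9% and 34.2% of all genes, and Cd80 was the member not called (log2 fold change 0.40, SE 0.18, adjusted p = 0.0525 in edgeR). Over 26 alternatives the adjusted p of Cd80 ran from 0.000189, without untreated Mcu-/- replicate 4, to 0.899, and its direction turned with library totals in place of TMM.

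Untreated BMDMs of the genotypes had no called difference in this set. In edgeR 0 of 8 members were called, as were 0.35% of all genes in either direction. At an unadjusted p under 0.05 there were 4 higher and 0 lower, with no share of all genes counted for that rule. These 4 had log2 fold changes of 0.64 (Cd40), 0.76 (Cd69), 0.31 (Cd83) and 0.395 (Cd274). Without untreated Mcu-/- replicate 4 the values were 0.18, 0.41, 0.11 and 0.06 in this order. With and without it, Cd80 had −0.32 and −0.11, Cd86 −0.11 and 0.06, Icosl −0.12 and −0.03, and Tnfsf9 0.57 and −0.04. DESeq2's Wald test called 1 higher, Cd69, beside 57 of 11707 genes called higher and 55 lower. Without replicate 4 edgeR again called 0 members, beside 3.35% of all genes. Replicate 4 held the extreme value of every tested member in the Mcu-/- untreated group. Its Cd40 was at 25.2 CPM against 10.4, 9.21 and 10.0 in replicates 1 to 3, its Cd274 at 87.3 CPM against 43.0, 42.1 and 43.8, and its Tnfsf9 at 6.39 CPM against 1.74, 2.20 and 2.08. Cd69 and Cd83 were also higher in it, at 9.84 CPM against 4.73, 4.44 and 4.78 and at 55.4 CPM against 34.7, 34.9 and 34.4. Cd80 was lower in it at 3.17 CPM against 6.69, 7.64 and 7.45, as were Cd86 at 23.2 CPM against 38.2, 43.8 and 43.6, and Icosl at 27.5 CPM against 36.8, 33.8 and 38.5. Thus 5 members lay above and 3 below all other untreated libraries of either genotype. The share of all genes outside those libraries was not counted, and replicate 4 stood apart over all genes. Mcu-/- zymosan libraries, set against WT zymosan libraries, likewise lay lower for Cd80 and Cd86 and higher for Cd40, Cd69 and Tnfsf9. They went the other way for Icosl and overlapped for Cd274 and Cd83. Cell type markers also differed in replicate 4. The fibroblast list summed to 16.1 CPM in it against 1.37, 1.88 and 0.876 in replicates 1 to 3, the B cell list to 18.8 CPM against 55.4, 55.3 and 53.5, the dendritic cell list to 5.08 CPM against 26.8, 26.7 and 25.05, and the macrophage list to 8557 CPM against 14419, 14779 and 14649. With zymosan, Mcu-/- libraries also had a higher fibroblast list and lower B cell, dendritic cell and macrophage lists than WT libraries. The part of these shifts in the members' values was not tested.

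Cd69 was the member nearest to a difference. The Mcu-/- untreated libraries, replicate 4 included, lay above the 2.91 to 3.88 CPM of the WT untreated libraries, and the log2 fold change was 0.76 (standard error 0.21, adjusted p = 0.148 in edgeR). Without replicate 4 it was 0.41 (standard error 0.19, adjusted p = 0.291 in edgeR), and over 26 alternatives the adjusted p ran from 0.0196 to 0.755. It was 1 of 8 members without overlap, where 7.09% of all genes had none.

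The zymosan response was then compared between genotypes as a difference of log2 fold changes. In Mcu-/- BMDMs zymosan raised 7 of 8 members and lowered 0 in edgeR, beside 34.3% and 39.4% of all genes. DESeq2's Wald test called all 8 higher, beside 4200 of 11707 genes higher and 4340 lower. At an unadjusted p under 0.05 all 8 were also higher in Mcu-/- BMDMs. The log2 fold changes there were 7.93 for Cd69, 5.46 for Tnfsf9, 5.14 for Cd274, 4.58 for Cd40, 2.48 for Cd83, 2.07 for Cd86 and 0.42 for Icosl (SE 0.09 to 0.25, edgeR adjusted p at most 0.00054), and 0.41 for Cd80 (standard error 0.19, adjusted p = 0.064 in edgeR). Without untreated Mcu-/- replicate 4 they were 8.28 for Cd69, 6.07 for Tnfsf9, 5.47 for Cd274, 5.05 for Cd40, 2.68 for Cd83, 1.90 for Cd86, 0.33 for Icosl and 0.20 for Cd80, with the call of each member as before, beside 39.2% of all genes called higher and 42.4% lower. The rise of Icosl in Mcu-/- BMDMs turned to −0.10 with library totals in place of TMM, under which the median of all genes was −0.58 in place of −0.06.

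**Figure D3:**
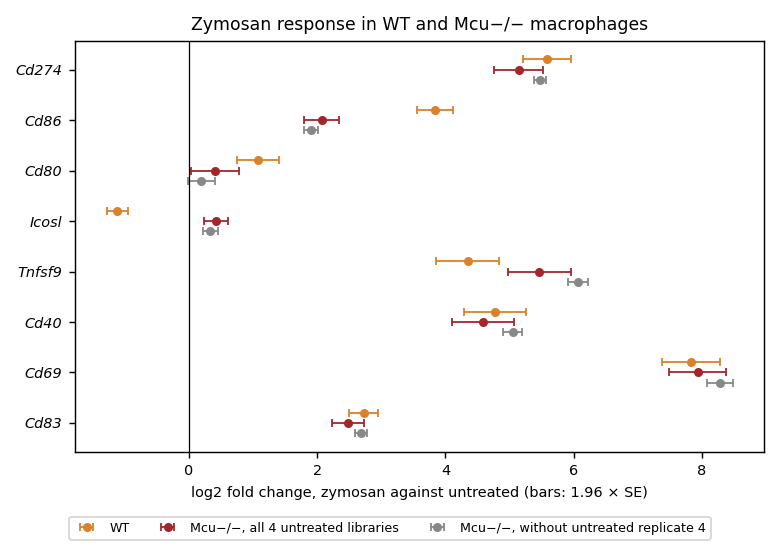
Points are log2 fold changes of zymosan against untreated BMDMs (x axis) for the 8 tested members (y axis) in WT, in Mcu-/- and in Mcu-/- without untreated replicate 4, with 95% intervals from the standard error as bars. The WT and Mcu-/- points lie apart for Cd86 (3.84 and 2.07), for Icosl (−1.12 and 0.42) and for Tnfsf9 (4.35 and 5.46).

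The response itself differed between genotypes for 4 members, 2 in each direction, beside 15.2% of all genes called higher and 20% lower. The response of Cd86 was smaller in Mcu-/- BMDMs by 1.77 on the log2 scale, that is a difference of −1.77 (standard error 0.19, adjusted p = 1.83e-06 in edgeR). That of Icosl was a fall in WT and not in Mcu-/-, a difference of 1.54 (standard error 0.13, adjusted p = 8.60e-08 in edgeR). Without untreated Mcu-/- replicate 4 these differences were −1.94 and 1.45. Both held in all 25 alternatives. That of Tnfsf9 was larger by 1.11 (standard error 0.36, adjusted p = 0.0243 in edgeR), or by 1.72 without replicate 4 (adjusted p = 6.20e-12 in edgeR), and the call was lost without WT untreated replicate 2 and without Mcu-/- untreated replicate 2 or 3 (adjusted p = 0.0513, 0.0537 and 0.0533 in edgeR). That of Cd80 was smaller, with a difference of −0.67 (standard error 0.26, adjusted p = 0.0473 in edgeR), and 22 of 25 alternatives lost the call, with adjusted p from 6.12e-07 without Mcu-/- untreated replicate 4 (difference −0.89) to 0.107 without Mcu-/- untreated replicate 2.

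For the other 4 members no difference of the response was called. It was −0.44 for Cd274 (standard error 0.23, adjusted p = 0.148 in edgeR), −0.24 for Cd83 (standard error 0.16, adjusted p = 0.257 in edgeR), −0.19 for Cd40 (standard error 0.31, adjusted p = 0.666 in edgeR) and 0.10 for Cd69 (standard error 0.27, adjusted p = 0.793 in edgeR). Without untreated Mcu-/- replicate 4 the difference was −0.10 for Cd274 (adjusted p = 0.11 in edgeR), −0.04 for Cd83 (adjusted p = 0.643 in edgeR) and 0.45 for Cd69 (adjusted p = 0.0506 in edgeR). That of Cd40 turned to 0.27 (adjusted p = 0.0426 in edgeR), which made 3 members higher and 2 lower, beside 31% and 29.3% of all genes. The higher level of Cd69 in Mcu-/- zymosan BMDMs stood without a called difference in its fold response, with or without that library.

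Ratios taken within a library do not depend on its scaling and show how unequally the B7 ligands moved. The CPM of Cd274 was 0.907 to 1.19 times that of Cd86 in WT untreated libraries, 3.26 to 3.56 times in WT zymosan, 3.73 to 4.26 times in BAPTA-AM loaded and 11.5 to 12.9 times in Mcu-/- zymosan libraries. These zymosan groups did not overlap, and untreated Mcu-/- replicate 4, at 3.77, lay apart from an untreated Mcu-/- median of 1.07. Cd86 itself was 28.1 to 37.7 times Cd80 in WT zymosan and 16.9 to 20.9 times in Mcu-/- zymosan libraries. The ratios are a description, and no test was made of them.

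**Figure D4:**
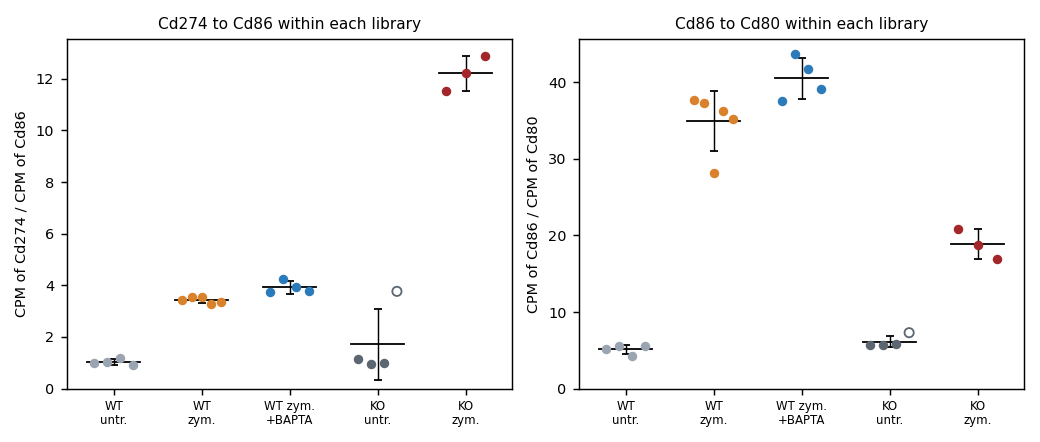
Points are the ratio of CPM of Cd274 to Cd86 (left) and of Cd86 to Cd80 (right) within each library (y axes, linear from 0) by group (x axis, named as WT or KO, untreated, zymosan or zymosan with BAPTA-AM), with the mean ± SD as lines and bars and untreated Mcu-/- replicate 4 as the open circle. The Cd274 to Cd86 ratio has a median of 3.44 in WT zymosan and 12.2 in Mcu-/- zymosan libraries.

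Across the 19 libraries without untreated Mcu-/- replicate 4, the log2 CPM of the members fell into a close group and 2 members apart from it. Pearson's r was 0.812 to 0.999 over the 15 pairs of Cd40, Cd69, Cd83, Cd86, Cd274 and Tnfsf9, 0.53 to 0.846 over the 6 pairs of Cd80 with these and −0.823 to −0.367 over the 7 pairs with Icosl. The points share their 5 groups, so these values mainly describe group means. Among 10577 genes the pattern most like that of Cd86 was in Nmd3 (0.9967), Rilpl2 (0.9966) and Ptprc (0.9965), the last of which encodes CD45. For Cd40 and Cd69 the nearest genes included each other (0.9994), beside Tap1 and Dtx3l for Cd40 and Arid5b and Slfn5 for Cd69. For Cd274 they were Trim25 (0.9997), Fam53c (0.9997) and Ifi207 (0.9996), for Cd83 Acod1, Slfn2 and Fam46a (0.9988 each), and for Tnfsf9 Lancl3 (0.9989), Mtdh (0.9984) and Irak2 (0.9981). For Icosl they were Hip1 (0.9878), Cmas (0.985) and St3gal5 (0.9849), and for Cd80 they included Mat2a (0.9689) and Amd1 (0.9614).

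Other ligands of lymphocyte receptors had calls in both directions in Mcu-/- BMDMs. Of 20 listed, 19 were tested and Vtcn1 had 0 counts. In WT BMDMs zymosan raised 14 and lowered 1, beside 32.4% and 36.8% of all genes. In Mcu-/- against WT with zymosan 5 were higher and 8 lower, beside 31.8% and 30.3% of all genes, so that the share called was close to the background. With BAPTA-AM 0 were higher and 3 lower, beside 6.43% and 6.33% of all genes. DESeq2's Wald test gave 0 and 4, beside 668 and 1000 of 11707 genes, and an unadjusted p under 0.05 gave 0 and 5. Without untreated Mcu-/- replicate 4 the counts were 8 higher and 10 lower in Mcu-/-, beside 36.4% and 33.7% of all genes, and 0 higher and 7 lower with BAPTA-AM, beside 15.3% and 16.5%. Their median log2 fold changes were 1.04, −0.30 and −0.22, beside −0.04, 0.02 and 0.00 over all genes. Lower in Mcu-/- and with BAPTA-AM were Tnfsf15, which encodes the ligand TL1A, and Tnfsf18, which encodes the GITR ligand. Tnfsf15 was at 118 ± 10.8 CPM (SD, n = 5) in WT zymosan, 71.6 ± 3.88 (n = 3) in Mcu-/- zymosan and 86.6 ± 5.53 CPM (n = 4) in loaded BMDMs, with log2 fold changes of −0.72 and −0.45 (adjusted p = 1.00e-06 and 0.000392 in edgeR). Tnfsf18 was at 5.60 ± 0.560, 3.08 ± 0.413 and 2.72 ± 0.166 CPM, with log2 fold changes of −0.86 and −1.04 (adjusted p = 0.0322 and 0.0315 in edgeR). By level the list was led by Sirpa, whose product binds CD47, at 1489.9 ± 60.1 CPM in WT zymosan and a log2 fold change of −0.28 with BAPTA-AM (adjusted p = 0.00257 in edgeR), and by Slamf7, at 927 ± 39.7 CPM in WT zymosan and not called in either comparison (adjusted p = 0.334 and 0.962 in edgeR). Without untreated Mcu-/- replicate 4 Slamf7 was called higher in Mcu-/- BMDMs, at 1158 ± 25.7 CPM (adjusted p = 7.40e-12 in edgeR).

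A list of counter-receptors holds those of members and, as with Cd47, Cd200 and Tnfrsf4, of other ligands, and is made up mostly of lymphocyte genes. Of 12 listed, 6 passed the filter, and Ctla4 and Cd40lg had 0 counts. Of those 6, zymosan raised 2 and lowered 0 in WT, beside 32.4% and 36.8% of all genes, and Mcu-/- against WT with zymosan had 4 higher and 2 lower, beside 31.8% and 30.3%. BAPTA-AM changed 0 in edgeR, beside 6.43% of all genes higher and 6.33% lower. Without untreated Mcu-/- replicate 4 it was 1 lower, beside 16.5% of all genes. DESeq2's Wald test also gave 1 lower, beside 1000 of 11707 genes, as did an unadjusted p under 0.05. Cd47, which is expressed widely, led by level at 487 ± 15.4 CPM in WT zymosan and 586 ± 10.2 CPM in Mcu-/- zymosan, a log2 fold change of 0.27 (adjusted p = 0.0326 in edgeR). Rgmb, which encodes a partner of PD-L2, was at 12.0 ± 1.22 and 14.9 ± 1.83 CPM, a log2 fold change of 0.31 (adjusted p = 0.0402 in edgeR). The other tested genes of this list were at low levels. Their means were 0.337 to 1.87 CPM in WT zymosan and 0.0362 to 4.94 CPM in Mcu-/- zymosan BMDMs.

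Of 12 genes of CD40 signalling and of the surface level of these proteins, 11 were tested and Marchf1 was not analysed here. Zymosan raised 7 and lowered 4 in WT, beside 32.4% and 36.8% of all genes, and Mcu-/- against WT had 5 higher and 4 lower, beside 31.8% and 30.3%. BAPTA-AM had 2 higher and 2 lower, beside 6.43% and 6.33%, or 2 and 5, beside 15.3% and 16.5%, without untreated Mcu-/- replicate 4. Traf1, an adaptor of CD40 and CD137, was at 69.8 ± 1.91 CPM in WT zymosan, 97.3 ± 4.50 in Mcu-/- zymosan and 58.95 ± 1.98 CPM in loaded BMDMs, with log2 fold changes of 0.48 and −0.24 (adjusted p = 1.53e-05 and 0.0175 in edgeR). Cmtm4, whose product protects PD-L1 from degradation, was at 9.70 ± 0.713, 16.4 ± 1.12 and 13.9 ± 1.14 CPM, with log2 fold changes of 0.76 and 0.52 (adjusted p = 2.04e-06 and 0.000404 in edgeR). Its relative Cmtm6, which has the same role and led the list by level with 274 ± 8.80 CPM in WT zymosan, had a log2 fold change of −0.05 in Mcu-/- and −0.11 with BAPTA-AM (adjusted p = 0.192 and 0.0299 in edgeR). Birc3, an E3 ligase recruited by the TRAF adaptors, was next at 244 ± 5.20 CPM and had log2 fold changes of −0.14 and −0.14 (adjusted p = 0.0441 and 0.106 in edgeR).

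Klf2 and S1pr1 belong with Cd69, since KLF2 drives S1pr1 transcription in lymphocytes and CD69 acts on the S1PR1 protein. Klf2 was at 17.7 ± 0.417 CPM in WT untreated, 7.53 ± 0.252 in WT zymosan, 12.7 ± 1.42 in loaded and 26.9 ± 0.615 CPM in Mcu-/- zymosan BMDMs. Against WT zymosan its log2 fold change was 1.84 in Mcu-/- and 0.76 with BAPTA-AM (adjusted p = 1.23e-06 and 0.0186 in edgeR), whereas Cd69 had 0.86 and −0.43. S1pr1, singled out after its values were seen, fell from 35.9 ± 2.00 to 2.20 ± 0.286 CPM with zymosan in WT (log2 fold change −4.03, adjusted p = 2.31e-11 in edgeR) and was at 8.22 ± 1.24 CPM in Mcu-/- zymosan BMDMs (log2 fold change against WT 1.89, adjusted p = 1.61e-05 in edgeR). Thus Cd69 and S1pr1, which zymosan moved in opposite directions, were both higher in Mcu-/- than in WT BMDMs with zymosan.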

How the data were processed

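The authors trimmed adaptors (cutadapt), aligned reads to mm10 with STAR and deposited HTSeq's counts per gene as whole numbers, not normalized. FastQC and MultiQC are also named in the submitters' processing notes, and the strand setting is not given in the sources used here. Replicates of Mcu-/- zymosan are named by their column numbers, 3 to 5, since the labels count otherwise. Counts were filtered with filterByExpr (11707 genes), scaled with TMM and fitted with edgeR 4.0.16 (R 4.3.3) by the quasi-likelihood test, with 1 coefficient per group over all 20 libraries. DESeq2 1.42.0 was an alternative. The test makes a call at a Benjamini-Hochberg adjusted p under 0.05, and intervals are at 95%. Figures were drawn with matplotlib 3.10.9. The members, lists, markers and tests were chosen with earlier results of these data known. The text names all 10 members, for each tested member the 3 genes of highest Pearson r over 19 libraries, and, of each further list, the genes called in both the Mcu-/- and the BAPTA-AM comparison with zymosan and the 2 of highest level. In data simulated for the Mcu-/- against WT zymosan comparison over 11237 genes, 178 of 200 genes changed by a log2 of 1 were recovered by edgeR. It also called 11 unchanged genes. The real comparison had 62.1% of all genes called, and the simulation does not test scaling under shifts that wide. Gene positions and exon lengths are from GENCODE M21. A level of 3 counts was taken as the detection floor, which is for counting error only. Alternatives were DESeq2's size factors, DESeq2's Wald test, no low-count filter, groups fitted alone, a replicate block, each library left out and, chosen after seeing the data, library totals in place of TMM.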

Additional observations from a re-analysis of the deposited data

Results flagged for a closer look

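Untreated Mcu-/- replicate 4 lay farther from the other 3 libraries of its group than Dixon's 95% criterion allows for 5 members: Cd40 at 25.2 CPM, Cd69 at 9.84, Cd83 at 55.4, Cd274 at 87.3 and Tnfsf9 at 6.39 CPM. Of 32 combinations of member and group that were checked, these were the 5 past the criterion. Chance flags about 1 in 20 of independent checks, but these 5 come from the same library and the members' levels are correlated. No share over all genes was counted, and that library stood apart over all genes.

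The zymosan response differed between genotypes in edgeR's test of the difference for 4 members. The difference of Mcu-/- minus WT on the log2 scale was −1.77 for Cd86, 1.54 for Icosl, 1.11 for Tnfsf9 and −0.67 for Cd80.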

How the results depend on the processing

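Calls of Cd86, Cd80, Icosl, Tnfsf9 and Cd69 in Mcu-/- against WT with zymosan passed the threshold in every alternative run. Of the 312 member values refitted on all libraries or the compared groups, 291 kept direction and side of the threshold, as did 1080 of 1120 refitted without a library. The number of members with a smaller response in Mcu-/- was 1 in place of 2 with DESeq2's size factors, with no low-count filter and with the groups alone. In this order 2286 of 11707, 2208 of 16913 and 2130 of 11683 genes were called lower. When a library was left out, 1 to 2 members had a smaller response, beside 1972 to 3417 of all genes. The number with a larger response was then 1 to 3, beside 1415 to 3622 of all genes. DESeq2's Wald test called 1 member higher in untreated Mcu-/- BMDMs, beside 57 of 11707 genes. The members lower with BAPTA-AM were 2 in the reported fit, beside 741 of 11707 genes, and 6 with the groups alone, beside 1788 of 10973 genes. They were 1 to 6 when a library was left out, beside 525 to 1929 of all genes. Replicate numbers did not pair the samples (r of same-numbered deviations −0.061 to 0.067). A replicate block left 1 member lower with BAPTA-AM, beside 461 of 11498 genes, without the call of Cd86 (adjusted p = 0.0799 in edgeR). No paired analysis was possible for Mcu-/- zymosan libraries because their columns carry other numbers than the labels. With library totals, chosen after seeing the data, the log2 fold change of Cd80 turned to −0.123 in Mcu-/- zymosan against untreated and to −0.027 in loaded against WT untreated BMDMs, that of Icosl to −0.102 in Mcu-/- zymosan against untreated, and that of Cd83 to 0.059 with BAPTA-AM. Cd83 with BAPTA-AM was 0.004 with the groups alone and −0.023 to 0.014 when a library was left out. Leaving out a library also spanned zero for the difference of the response of Cd40 (−0.341 to 0.27) and Cd69 (−0.014 to 0.45) and for untreated Mcu-/- against WT in Cd86 (−0.196 to 0.065) and Tnfsf9 (−0.037 to 0.767). The cause of these changes was not tested. Depth limits Cd70 and Pdcd1lg2, which had at most 10 counts per library.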
